A study of Saccharomyces cerevisiae with 90 samples.

Results

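The genes described here are 10 genes of purine nucleotide and one-carbon synthesis in budding yeast: ADE1, ADE2, ADE4, ADE6, ADE8, ADE12, ADE13, ADE17, MTD1 and SHM2. They were chosen by symbol, and each had exactly 1 annotated probe set in each table of the series. They are 10 of 5562 genes measured in colonies and 10 of 5560 genes measured in cells from synthetic complete (SC) medium. The locus tags are YMR300C (ADE4), YDR408C (ADE8), YGR061C (ADE6), YOR128C (ADE2), YAR015W (ADE1), YLR359W (ADE13), YMR120C (ADE17), YNL220W (ADE12), YLR058C (SHM2) and YKR080W (MTD1).

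Purine nucleotides are built stepwise on phosphoribosyl pyrophosphate (PRPP) until inosine monophosphate (IMP) is formed, and IMP is then turned into AMP or GMP. Some of these steps take a carbon unit carried by tetrahydrofolate, which serine supplies through serine hydroxymethyltransferase. In yeast, the activator Bas1 and its partner Pho2 switch on most of these genes when adenine is scarce.

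The series measured mRNA with Affymetrix arrays. In the colony table, 13 double-deletion strains had 3 arrays each. Among the single deletions, tec1 and cup9 had 5 arrays each, and the sfl1, sok2, skn7 and yap6 strains 3 each. Each of the 6 deleted genes encodes a transcription factor. The deletions were marked with bcKanMX4, except yap6 with NatMX4. The wild type G85 was measured in its filamentous form on 3 arrays and in its yeast form on 6 arrays, of which replicate 6 carries no genotype label. All deletion strains and the filamentous wild type grew for 10 h on synthetic low-ammonium dextrose medium with uracil and histidine. The yeast form grew for 10 h on synthetic complete dextrose medium, so form and medium changed together and their parts cannot be told apart. The labels do not give the composition of either medium, adenine included.

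The SC table holds 20 arrays of MATa/alpha diploids with altered signalling through Ras and cAMP. In yeast, active Ras proteins switch on the enzyme that makes cAMP, the IRA proteins switch Ras off, and the phosphodiesterase Pde2 degrades cAMP. Strains with the plasmid-borne alleles RAS2V19 (dominant active) and RAS2A22 (dominant negative) had 2 arrays each and share the ura3-52 background of the wild type (4 arrays, empty plasmid). The homozygous ira1 deletion, the same deletion with a plasmid carrying an arginine-to-alanine allele of IRA1 (ira1RA), and the ira2 deletion had 2 arrays each. These strains, and those given cAMP, also carry leu2 and his3 disruptions that the wild type does not. Strains lacking RAS1, RAS2 and PDE2 were given cAMP at 0 mM (2 arrays), 0.5 mM (1 array), 1 mM (1 array) or 2 mM (2 arrays). The strain at 0 mM has a different number from the one at the other concentrations and carries a plasmid that the other lacks.

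Several libraries stood apart from their labels. The library labelled tec1 replicate 1 read TEC1 at 8.68 on the log2 scale, against 8.06 to 8.56 in the filamentous wild type, and it read CUP9 at 4.07. The library labelled cup9 replicate 4 read CUP9 at 8.21, against 7.72 to 7.84 in the filamentous wild type, and it read TEC1 at 4.57. In each of these libraries the other library's deleted gene was the low one. The 3 libraries labelled cup9-yap6 read CUP9 at 8.38, 8.10 and 8.04. SFL1, SOK2, SKN7 and YAP6 were below the filamentous wild type on all arrays labelled as lacking them. In the SC table, the ras2a22 arrays held the same intensity for 315 of the 1284 probe sets above 100 on both (24.5%). The next highest share for a pair of arrays was 1.82%. ADE13 and SHM2 are among these, and ADE17 and MTD1 were identical too but below 100, so results on ras2a22 are also given with its arrays averaged as 1 sample, a choice made after seeing the data. FLO11, a flocculin gene of the filamentous form, was higher in the filamentous than in the yeast-form wild type by 2.20 ± 0.57 on the log2 scale (SE, limma, adjusted p = 0.00144).

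Levels of the colony table are deposited log2 values, and a log2 change of 1 is a doubling. Each change carries its standard error (SE) and the p-value of limma's moderated test, Benjamini-Hochberg adjusted over all genes. A gene is called at an adjusted p under 0.05.

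**Figure D1:**
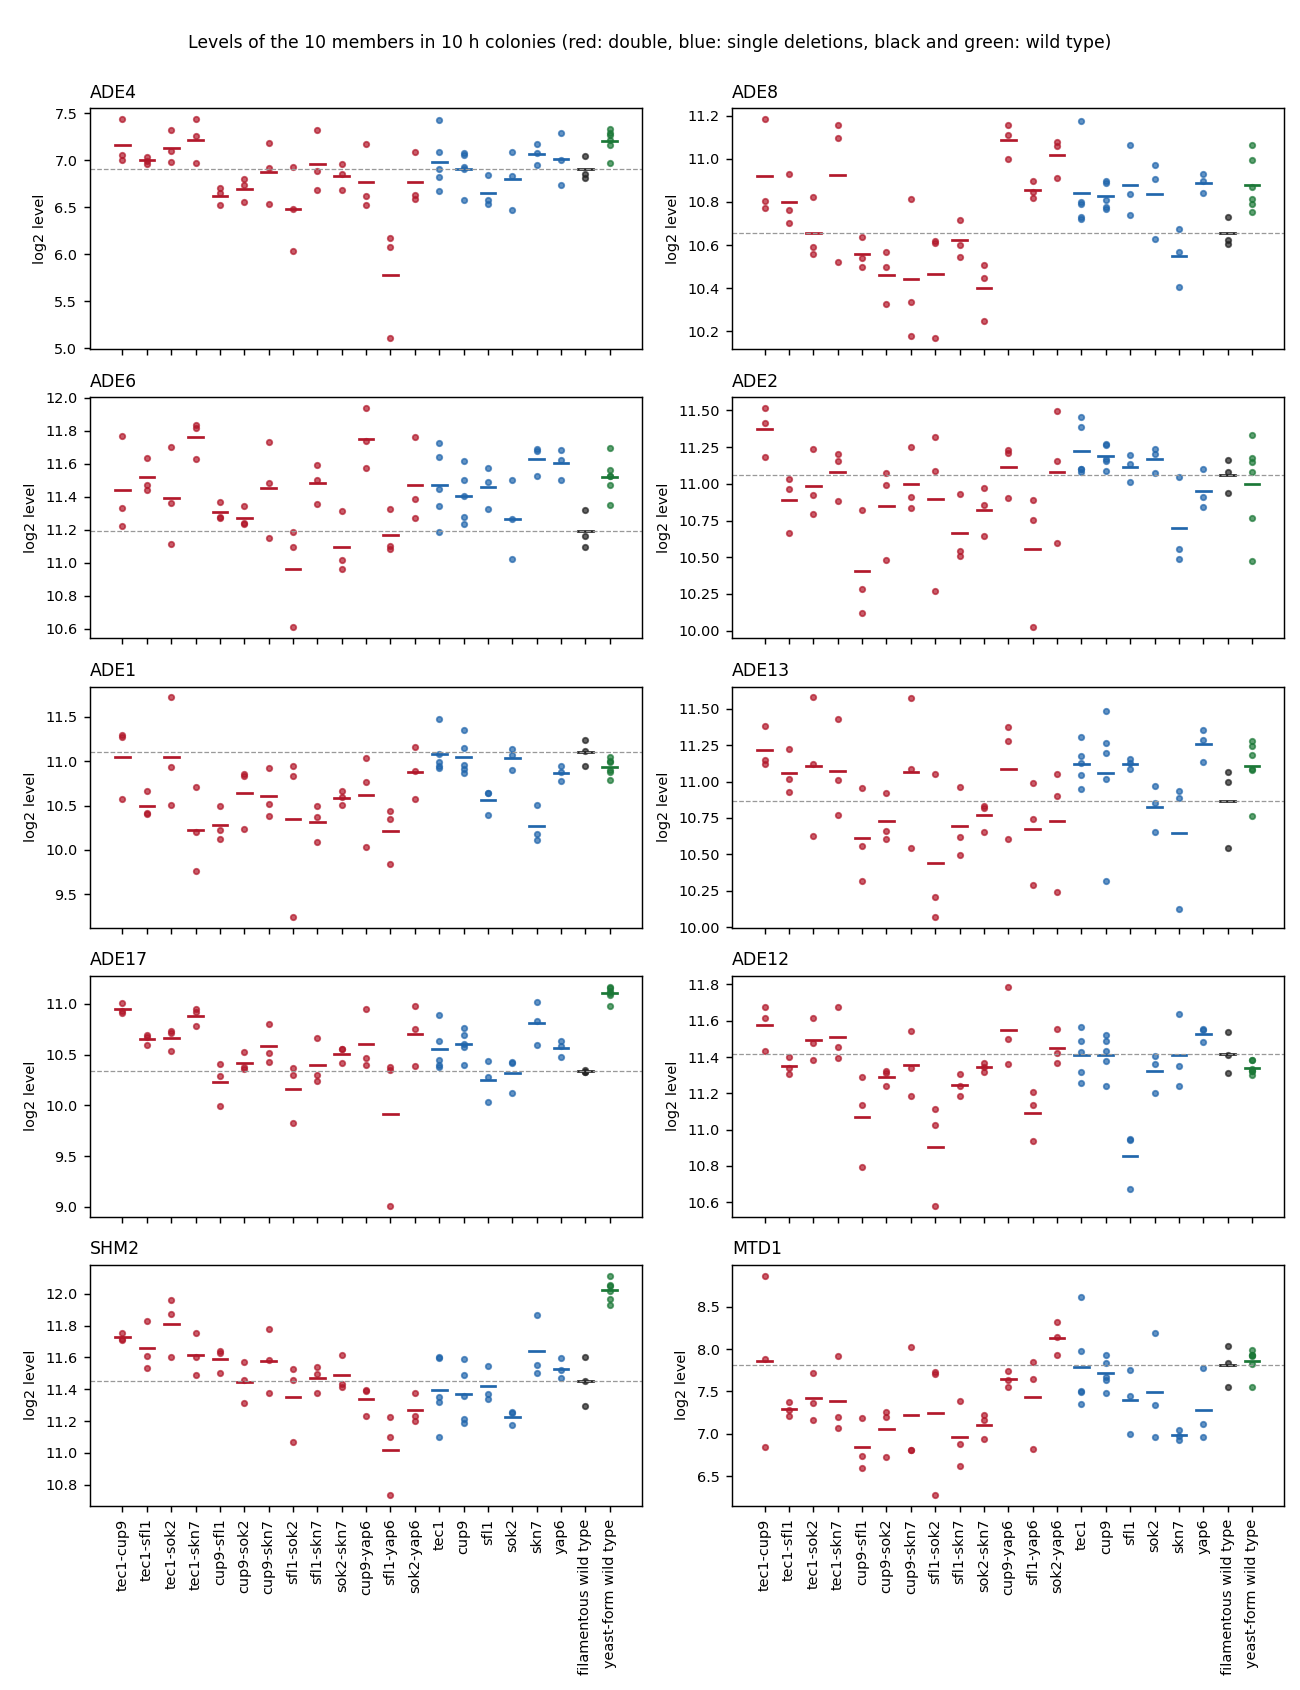
Each panel plots the deposited log2 level (vertical axis) of 1 gene on each colony array (points), by group along the horizontal axis: double deletions, single deletions, filamentous wild type and yeast-form wild type from left to right. The dashed line is the mean of the filamentous wild type. ADE4 lies lowest in sfl1-yap6 (mean 5.78), and ADE17 and SHM2 lie highest in the yeast-form wild type (means 11.11 and 12.02).

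The filamentous and yeast forms of the wild type were compared first, a comparison that asks which genes follow the switch of growth form with its medium. Of the 10 genes, 3 fell in the filamentous form and 0 rose, where 44.9% of all genes were called and 23.2% were called lower. The 3 were ADE17, SHM2 and ADE6. After quantile normalization 2 fell, ADE17 and SHM2, and 1 rose, ADE12 (0.35, adjusted p = 0.0117). The median change of the 10 was -0.23, against 0.05 over all genes. It was -0.04, against 0.05 over all genes, after quantile normalization, and -0.14 without filamentous replicate 2. In bulk RNA, fewer cells of a type and less RNA per cell cannot be told apart.

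ADE17 encodes the bifunctional enzyme that closes the purine ring to give IMP. Its levels were 10.35, 10.33 and 10.33 in the filamentous form, against a lowest of 10.98, a median of 11.11 and a highest of 11.17 in the yeast form. All filamentous arrays lay below all yeast-form arrays. The change was -0.77 ± 0.16 (adjusted p = 0.000152).

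SHM2 encodes the cytosolic serine hydroxymethyltransferase, which loads a carbon unit from serine onto tetrahydrofolate. Its levels were 11.29, 11.60 and 11.45 in the filamentous form, against a lowest of 11.93, a median of 12.03 and a highest of 12.11 in the yeast form. These groups did not overlap either, and the change was -0.57 ± 0.11 (adjusted p = 5.05e-05). The calls of ADE17 and SHM2 held under every alternative run.

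ADE6 encodes formylglycinamidine ribonucleotide synthetase, a middle step of ring building. It read 11.10, 11.16 and 11.32 in the filamentous form, against a lowest of 11.35, a median of 11.52 and a highest of 11.69 in the yeast form. The groups did not overlap but came within a small distance of each other. The change of -0.33 ± 0.13 (adjusted p = 0.0402) shrank to -0.07 (adjusted p = 0.675) after quantile normalization, and without the filamentous replicate 1 or 2 it had an adjusted p of 0.153 or 0.102. Leaving out yeast-form replicate 1, 3, 5 or 6 also put it above the threshold, at 0.0579, 0.0515, 0.0793 and 0.0512. The 90th percentile of the arrays' values was 10.05 to 10.06 in the filamentous form, against 10.20 to 10.28 in the yeast form, and the part of this difference in the result was not tested.

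ADE8, which encodes the glycinamide ribonucleotide formyltransferase, read 10.62, 10.61 and 10.73 in the filamentous form, against a lowest of 10.75 and a highest of 11.06 in the yeast form. Its arrays did not overlap, but the change of -0.23 ± 0.12 was not called (adjusted p = 0.118). In all, 4 of the 10 genes had all filamentous arrays below all yeast-form arrays, as had 26.1% of all genes. ADE4, ADE2, ADE1, ADE13, ADE12 and MTD1 overlapped between the forms.

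Other genes around the pathway went several ways between the forms, where 21.6% of all genes were called higher and 23.2% lower. BAS1 and PHO2 were not called, at 0.60 ± 0.26 (adjusted p = 0.0591) and 0.08. The other measured purine synthesis genes, ADE3 (a tetrahydrofolate synthase) and ADE16 (the isozyme of ADE17), were not called at -0.20 and -0.13. Of 7 other genes known as Bas1 targets, 3 fell and 0 rose. These 3 all encode subunits of glycine decarboxylase: GCV2 (-1.57 ± 0.21, adjusted p = 4.7e-08), GCV1 (-0.86) and GCV3 (-0.57). GCV3 was lost after quantile normalization (adjusted p = 0.227) and without filamentous replicate 3 (0.0697). Of 9 other folate and one-carbon genes, 5 rose and 1 fell. FOL1, of folate synthesis, changed by 0.86 (adjusted p = 6.24e-05), the dihydrofolate reductase gene DFR1 by 0.83, and MET13, of methylenetetrahydrofolate reduction, by -0.92. Of 9 salvage genes, 2 rose and 2 fell. HPT1, which recovers hypoxanthine and guanine, changed by 0.90, PNP1, a purine nucleoside phosphorylase gene, by -0.88, and AAH1, the adenine deaminase gene, by 0.74 (adjusted p of 0.0643 without filamentous replicate 3). Of 5 PRPP synthetase genes, only PRS5 changed (-0.66), and 0 of 5 GMP-branch and 0 of 4 serine synthesis genes were called.

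Single deletions were set against the filamentous wild type. They called few of the 10 genes: 5 of 60 gene and strain pairs passed, 3 higher and 2 lower, where 14.5% of all such pairs passed. All these comparisons share the same 3 filamentous wild-type arrays, so they are not independent of one another. None of the 10 genes was called by limma in tec1 (0.126% of all genes), cup9 (0.342%) or sok2 (1.17%), and 0 had an unadjusted p under 0.05 in each. Both counts were also 0 without the library labelled tec1 replicate 1 and that labelled cup9 replicate 4.

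In sfl1, where 24.8% of all genes were called, ADE12 alone passed. ADE12 encodes adenylosuccinate synthase, the first step from IMP to AMP. It read 10.94, 10.67 and 10.95 in sfl1, against 11.31, 11.54 and 11.41 in the filamentous wild type. All sfl1 arrays lay below all wild-type arrays, as they did for 23.5% of all genes. The change of -0.56 ± 0.12 (adjusted p = 0.00068) held under every alternative run, and sfl1 had the lowest ADE12 mean of the 21 groups, 10.85 ± 0.16 (SD, n = 3).

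The skn7 strain called 3 of the 10 genes, where 37.1% of all genes passed. ADE6 and ADE17 rose and ADE1 fell. ADE1 encodes SAICAR synthetase, a late step before IMP. It read 10.18, 10.11 and 10.51 in skn7, against 11.11, 11.23 and 10.95 in the filamentous wild type. The groups did not overlap, and 29.3% of all genes were lower in skn7 without overlap. The ADE1 change was -0.83 ± 0.27 (adjusted p = 0.0126, or 0.0665 without skn7 replicate 1).

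ADE6 read 11.68, 11.69 and 11.53 in skn7, against 11.10, 11.16 and 11.32 in the filamentous wild type. The change was 0.44 ± 0.15 (adjusted p = 0.023), and quantile normalization gave an adjusted p of 0.123. ADE17 read 11.02, 10.84 and 10.59 in skn7, against 10.35, 10.33 and 10.33 in the filamentous wild type. All skn7 arrays lay above all wild-type arrays for both genes, as they did for 25.1% of all genes. The ADE17 change of 0.48 ± 0.19 (adjusted p = 0.0405) passed the threshold narrowly. It was lost without any 1 of the filamentous wild-type arrays, without skn7 replicate 1 or 2, and after quantile normalization, with adjusted p of 0.0705 to 0.208. ADE6 was lost without filamentous replicate 1 (0.0853) or 2 (0.0567) and without skn7 replicate 1 (0.0964) or 2 (0.055). MTD1, the NAD-dependent methylenetetrahydrofolate dehydrogenase gene, read 6.93, 7.04 and 6.97 in skn7, against 7.84, 7.55 and 8.04 in the filamentous wild type, and was not called at -0.83 ± 0.34 (adjusted p = 0.0513). Its groups did not overlap.

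In yap6, where 23.6% of all genes passed, only ADE6 was called. It read 11.62, 11.50 and 11.68 in yap6, against 11.10, 11.16 and 11.32 in the filamentous wild type, and the arrays did not overlap. Higher in yap6 without overlap were 25.9% of all genes. The change of 0.41 ± 0.15 (adjusted p = 0.0454) was lost when any 1 of the 6 arrays was left out (adjusted p of 0.0526 to 0.14), after quantile normalization (0.141) and with replicate numbers added to the fit as a block (0.052). The BAS1 level changed by -1.21 ± 0.31 in yap6 (adjusted p = 0.00244) and by -0.87 ± 0.31 in skn7 (adjusted p = 0.0217). The BAS1 call in yap6 was lost without yap6 replicate 1 (0.073), and that in skn7 without filamentous replicate 1 or 3 or skn7 replicate 1 or 2 (0.0537 to 0.131).

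Over the 13 double deletions, 17 of 130 gene and strain pairs were called, 13 lower and 4 higher, where 19.6% of all pairs passed. Those calls came from 6 strains: tec1-skn7, cup9-sfl1, sfl1-sok2, sfl1-skn7, sfl1-yap6 and the one labelled cup9-yap6. In the other 7, limma called 0 of the 10 genes. The shares in brackets below are of all genes called at the adjusted threshold and cannot be set against counts at an unadjusted p. At an unadjusted p under 0.05 there were 2 of the 10 genes in tec1-cup9 (1.80% of all genes called) and 2 in tec1-sfl1 (18.8%). There was 1 each in tec1-sok2 (10.0%), cup9-sok2 (10.6%), sok2-skn7 (7.34%) and sok2-yap6 (14.9%), and 0 in cup9-skn7 (14.1%). The count of 17 became 11, 10 or 10 without filamentous wild-type replicate 1, 2 or 3.

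**Figure D2:**
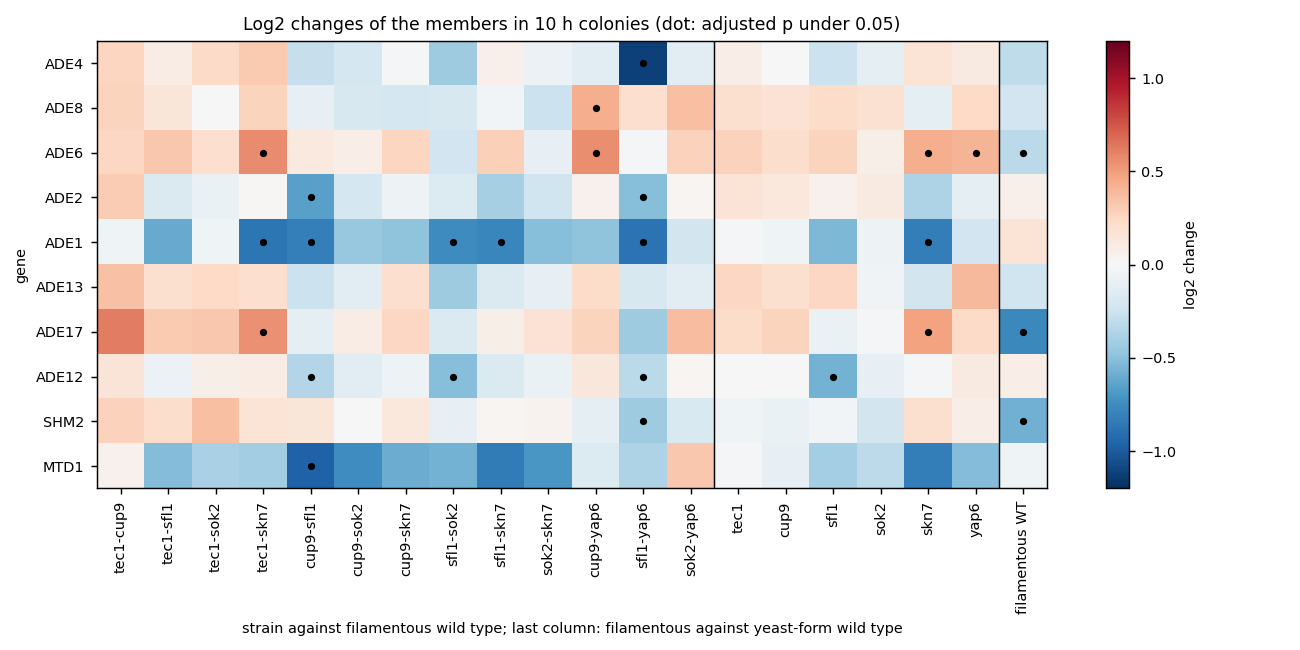
The colour gives the log2 change (scale at the side) of each of the 10 genes (vertical axis) in each strain (horizontal axis), for the 13 double and 6 single deletions against the filamentous wild type and, in the last column, for the filamentous against the yeast-form wild type. A dot marks an adjusted p under 0.05. The 17 dots of the double deletions fall in 6 strains, and 5 of them stand in sfl1-yap6.

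In tec1-skn7 (31.9% of all genes called), 3 genes passed, ADE6 and ADE17 higher and ADE1 lower. ADE6 read 11.82, 11.63 and 11.83 in tec1-skn7, against 11.10, 11.16 and 11.32 in the filamentous wild type, a rise of 0.57 ± 0.15 (adjusted p = 0.00488). ADE17 read 10.92, 10.95 and 10.78 in tec1-skn7, against 10.35, 10.33 and 10.33 in the filamentous wild type, a rise of 0.55 ± 0.19 (adjusted p = 0.0228). ADE1 read 10.21, 10.70 and 9.77 in tec1-skn7, against 11.11, 11.23 and 10.95 in the filamentous wild type, a change of -0.87 ± 0.27 (adjusted p = 0.0106). None of the 3 genes overlapped between the groups. Of all genes, 29.6% were higher and 24.7% lower in tec1-skn7 without overlap. ADE6 and ADE17 were lost after quantile normalization (adjusted p of 0.0634 and 0.114). ADE17 was lost too without any 1 filamentous array or without tec1-skn7 replicate 1 or 2 (0.051 to 0.0669), and ADE1 without tec1-skn7 replicate 3 (0.0926).

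In cup9-sfl1 (36.5% of all genes called, 21.9% lower), ADE2, ADE1, ADE12 and MTD1 fell. ADE2 encodes the carboxylase whose loss gives red colonies. It read 10.82, 10.12 and 10.28 in cup9-sfl1, against 11.08, 10.94 and 11.16 in the filamentous wild type, without overlap, a change of -0.65 ± 0.21 (adjusted p = 0.0154). MTD1 read 7.19, 6.59 and 6.73 in cup9-sfl1, against 7.84, 7.55 and 8.04 in the filamentous wild type, also without overlap, a change of -0.97 ± 0.34 (adjusted p = 0.0231). Lower in cup9-sfl1 without overlap were 31.9% of all genes. ADE1 changed by -0.82 ± 0.27 (adjusted p = 0.0146) and ADE12 by -0.35 ± 0.12 (adjusted p = 0.0225). All 4 calls were lost without cup9-sfl1 replicate 3 (adjusted p of 0.0792, 0.0772, 0.257 and 0.0873 for ADE2, ADE1, ADE12 and MTD1). Leaving out cup9-sfl1 replicate 2 also lost ADE2 (0.104) and MTD1 (0.095), and each of the 4 genes was lost without at least 1 of the filamentous replicates (0.0502 to 0.096). ADE12 was lost too in a fit of the compared strains alone (0.124).

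Other strains gave 1 or 2 calls each. In sfl1-sok2 (21.4% of all genes called, 12.0% lower), ADE12 read 10.58, 11.11 and 11.03, against 11.31, 11.54 and 11.41 in the filamentous wild type, a change of -0.51 ± 0.12 (adjusted p = 0.00185, or 0.0793 without sfl1-sok2 replicate 1 and 0.0555 in a fit of the compared strains alone). All 10 genes had a change below 0 there, as had 58.6% of all genes. ADE1 in sfl1-sok2 read 9.25, 10.83 and 10.95, against 11.11, 11.23 and 10.95 in the filamentous wild type, so that 1 array set the change of -0.75 ± 0.27 (adjusted p = 0.035). Without that array the adjusted p was 0.69, in a fit of the compared strains alone it was 0.22, and without any 1 filamentous array it was 0.0576 to 0.105. In sfl1-skn7 (19.4%), ADE1 read 10.37, 10.09 and 10.49, against 11.11, 11.23 and 10.95 in the filamentous wild type, a change of -0.78 ± 0.27 (adjusted p = 0.0317). The groups did not overlap, and 26.6% of all genes were lower in sfl1-skn7 without overlap. Leaving out any 1 filamentous array or sfl1-skn7 replicate 1 or 2 put the adjusted p of ADE1 at 0.0542 to 0.0955.

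In the strain labelled cup9-yap6 (22.0% of all genes called, 13.5% higher), ADE8 and ADE6 rose. ADE8 read 11.15, 11.00 and 11.11 there, against 10.62, 10.61 and 10.73 in the filamentous wild type, a change of 0.44 ± 0.14 (adjusted p = 0.0181). ADE6 read 11.94, 11.57 and 11.74 there, against 11.10, 11.16 and 11.32 in the filamentous wild type, a change of 0.55 ± 0.15 (adjusted p = 0.00614). Neither gene overlapped between the groups, and 27.7% of all genes were higher in that strain without overlap. Without replicate 1 of that strain the adjusted p was 0.0742 for ADE8 and 0.0592 for ADE6, and ADE8 was lost too without filamentous replicate 1 (0.0543) or 2 (0.0619).

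The sfl1-yap6 strain called 5 of the 10 genes, all lower, where 46.6% of all genes passed and 22.7% were lower. The median change of the 10 was -0.40, against 0.02 over all genes. Without sfl1-yap6 replicate 3 it was -0.15, against 0.00 over all genes, and ADE4 alone was called, where 38.2% of all genes passed and 18.5% were lower. ADE4 stood at the head. It encodes the PRPP amidotransferase that commits PRPP to purine synthesis. It read 6.17, 6.08 and 5.10 in sfl1-yap6, against 6.86, 7.04 and 6.82 in the filamentous wild type. All sfl1-yap6 arrays lay below all wild-type arrays, replicate 3 farthest, and 28.9% of all genes were lower there without overlap. The change of -1.12 ± 0.21 (adjusted p = 1.32e-05) held under every alternative run, with changes from -1.31 to -0.78.

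The other 4 calls in sfl1-yap6 were smaller. ADE1 read 10.44, 10.35 and 9.84, against 11.11, 11.23 and 10.95 in the filamentous wild type, a change of -0.89 ± 0.27 (adjusted p = 0.00469). SHM2 read 11.10, 11.22 and 10.74, against 11.29, 11.60 and 11.45 in the filamentous wild type, a change of -0.43 ± 0.13 (adjusted p = 0.00498). The arrays of both genes did not overlap between the groups, where 28.9% of all genes were lower in sfl1-yap6 without overlap. ADE2 changed by -0.51 ± 0.21 (adjusted p = 0.0471) and ADE12 by -0.33 ± 0.12 (adjusted p = 0.0242). Replicate 3 of sfl1-yap6 was the lowest of its strain for these genes, and without it ADE2, ADE1, ADE12 and SHM2 had adjusted p of 0.434, 0.0527, 0.145 and 0.0968. ADE2 was also lost without any 1 filamentous array (0.0524 to 0.13), and ADE12 without filamentous replicate 2 (0.113). A fit of the compared strains alone lost ADE2 (0.0876), ADE12 (0.0734) and SHM2 (0.056), and the replicate block lost ADE2 (0.0523). ADE17 read 10.35, 10.38 and 9.01 in sfl1-yap6, against 10.35, 10.33 and 10.33 in the filamentous wild type, and was not called at -0.42 (adjusted p = 0.0598). Replicate 3 alone was low, and without it the change was 0.03.

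Genes of the supplying pathways were also called in sfl1-yap6, where 46.6% of all genes passed and 22.7% were lower. All 4 serine synthesis genes fell, led by the phosphoglycerate dehydrogenase gene SER33 (-1.52, adjusted p = 2.02e-08), SER2 (-1.08) and SER1 (-0.96). Of 5 PRPP synthetase genes, 3 fell: PRS4 (-1.26, adjusted p = 1.35e-07), PRS3 (-0.90) and PRS1 (-0.60). Of 9 folate and one-carbon genes, 5 fell and 1 rose. The mitochondrial tetrahydrofolate synthase gene MIS1 changed by -1.47, FOL1 by -1.46, and DFR1 by -0.80. Without sfl1-yap6 replicate 3, the genes called lower were 3 of 4 for serine synthesis, 2 of 5 for PRPP and 4 of 9 for folate, and PRS1 was lost (adjusted p = 0.0877).

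In the branch from IMP to GMP, 3 of 5 genes fell in sfl1-yap6: the IMP dehydrogenase gene IMD4 (-1.72, adjusted p = 6.99e-07), the GMP synthase gene GUA1 (-0.89) and the guanylate kinase gene GUK1 (-0.32). Of 9 salvage genes, 4 fell and 1 rose. AAH1 changed by -3.06 ± 0.30 (adjusted p = 2.69e-12), HPT1 by -2.40 and the adenine phosphoribosyltransferase gene APT1 by -1.36. BAS1 fell by 1.5 on the log2 scale (adjusted p = 5.09e-05), ADE3 changed by -0.38 and ADE16 by 0.67 (adjusted p = 0.000376). Of the 7 other Bas1 targets, GCV2 rose (0.72) and GLN1, the glutamine synthetase gene, fell (-0.60). Without sfl1-yap6 replicate 3, 2 of the 5 GMP-branch genes fell, and of the salvage genes 4 still fell and 1 rose. That left out GUK1 (adjusted p = 0.142), ADE3 (0.271) and GLN1 (0.147), and GCV2 was lost without replicate 2 (0.164).

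A double deletion need not change a gene by the sum of its single changes, and the departure from that sum was tested for each pair. Of 130 departures, 2 were called, where 2.26% of all departures passed. Both were in sfl1-yap6, where 14.3% of all genes were called. Without sfl1-yap6 replicate 2 the count was 4, and without its replicate 3 it was 0. ADE4 read 6.17, 6.08 and 5.10 in sfl1-yap6, against 6.53, 6.85 and 6.57 in sfl1, 7.29, 6.74 and 7.0 in yap6, and 6.86, 7.04 and 6.82 in the filamentous wild type. The double strain lay below both single strains on every array, and its departure was -0.97 ± 0.30 (adjusted p = 0.0211).

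ADE6 read 11.08, 11.32 and 11.10 in sfl1-yap6, against 11.49, 11.57 and 11.32 in sfl1, 11.62, 11.50 and 11.68 in yap6, and 11.10, 11.16 and 11.32 in the filamentous wild type. The double strain lay near the filamentous wild type while both single strains had higher means, and the departure was -0.70 ± 0.22 (adjusted p = 0.0233). Without sfl1-yap6 replicate 3 the adjusted p was 0.163 for ADE4 and 0.0634 for ADE6. ADE4 was also lost without yap6 replicate 1 (0.0751) and in a fit of the compared strains alone (0.0755), and ADE6 without filamentous replicate 1 (0.0587), yap6 replicate 3 (0.0537) or sfl1-yap6 replicate 1 (0.0537). The departure of ADE16 was 1.14 (adjusted p = 0.000279, or 0.0031 without sfl1-yap6 replicate 3), opposite in sign to that of ADE4.

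**Figure D3:**
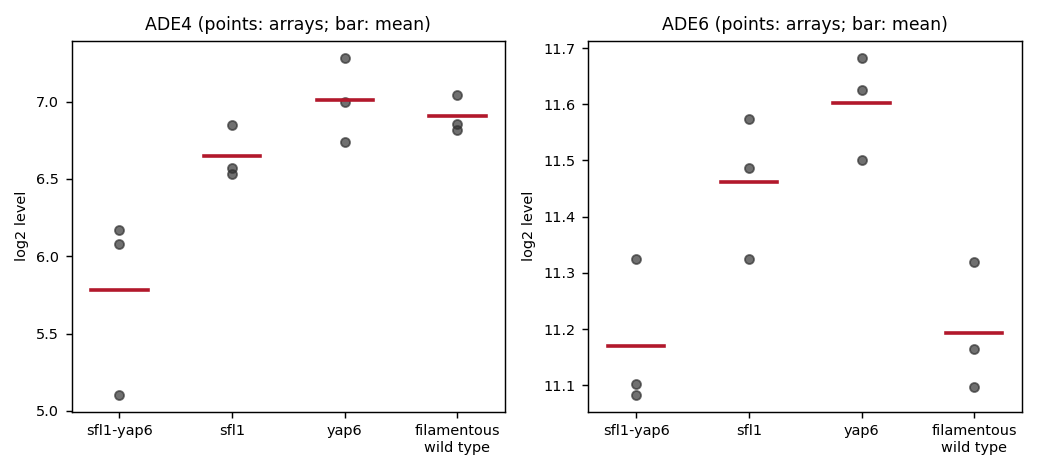
The points are the deposited log2 levels (vertical axis) of ADE4 and ADE6 on each array of sfl1-yap6, sfl1, yap6 and the filamentous wild type, with group means as bars and 3 arrays per group. ADE4 lies at 5.10 to 6.17 in sfl1-yap6, below every array of the other groups.

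Across the colony strains the genes differed in which way they lay from the filamentous wild type. ADE1 was below it in 6 of 6 single and 13 of 13 double deletions, with changes from -0.89 to -0.02, and its mean in the filamentous wild type, 11.10, was the highest of the 21 groups. ADE6 was above it in 6 of 6 single and 10 of 13 double deletions, though 3 of these signs (tec1-sok2, cup9-sfl1 and cup9-sok2) turned after quantile normalization. MTD1 was below it in 6 of 6 single and 11 of 13 double deletions, and was called in 1. ADE13, which encodes adenylosuccinate lyase, an enzyme of both the IMP and the AMP segment, was called in none of the colony comparisons. Its means ran from 10.44 in sfl1-sok2 to 11.26 in yap6. All these counts rest on the same 3 wild-type arrays, and no share of all genes is given for them. The within-group SD of ADE1 was 0.335, so its smallest changes lie well within that spread.

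Ordered by group mean, most neighbouring colony groups could not be separated. The 21 groups give 20 steps per gene, and a step exceeded the within-group SD once for ADE4, once for ADE17, in 2 steps for ADE12 and in 2 for SHM2. The widest step of ADE4 was 0.70, between sfl1-sok2 and sfl1-yap6. That of SHM2 was 0.21, between the yeast-form wild type and tec1-sok2. The other 6 genes had no step above their within-group SD. Their lowest and highest group means were 10.40 (sok2-skn7) and 11.09 (the strain labelled cup9-yap6) for ADE8, and 10.96 (sfl1-sok2) and 11.76 (tec1-skn7) for ADE6. They were 10.41 (cup9-sfl1) and 11.37 (tec1-cup9) for ADE2, and 6.84 (cup9-sfl1) and 8.13 (sok2-yap6) for MTD1. For ADE1 they were 10.21 (sfl1-yap6) and 11.10 (filamentous wild type), and for ADE13 10.44 (sfl1-sok2) and 11.26 (yap6). The SD of the group means over the within-group SD ran from 0.734 for ADE13 to 1.457 for SHM2, against a median of 1.058 over all genes.

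The 10 genes tended to vary together over the 21 group means. The median Pearson r of their 45 pairs was 0.464, and 42 pairs were above 0, against a median of 0.036 over all gene pairs. The highest r was 0.847 for ADE17 with ADE4, and the lowest was -0.125 for ADE8 with SHM2. For each of the 10, the gene with the highest r lay outside the set, from 0.840 (DSF2 for ADE8) to 0.917 (NUP145 for ADE4). Far more genes lie outside the set than in it, so this cannot show whether varying together was particular to the set. Each gene's r with the mean of the other 9 ran from 0.407 for SHM2 to 0.767 for ADE17. Of genes outside the set, those most like its mean were PCL9 (0.890), TRS65 (0.884), MRPL1 (0.880), AFG3 (0.876), MRPL4 (0.859), DLD2 (0.851), IMD3 (0.843), MSE1 (0.838), KNH1 (0.835) and SIT4 (0.835). The values describe 21 points that share array normalization and include double strains built from the single ones.

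The SC table gives linear intensities as deposited, and changes were computed on the log2 scale after scaling each array to the same median. Levels in the 2 tables are on separate scales and were not set against each other. Over the 5 mutants against the wild type, 1 of 50 gene and strain pairs was called, where 2.11% of all pairs passed. This was ADE6 in ras2a22 (8.0% of all genes called). ADE6 had intensities of 67 and 73 in ras2a22, against 203, 162, 143 and 135 in the wild type. Both ras2a22 arrays lay below all wild-type arrays, as they did for 17.4% of all genes, with a change of -1.17 ± 0.24 (adjusted p = 0.0128). With the ras2a22 arrays averaged as 1 sample the adjusted p was 0.109 (2.07% of all genes called), and without replicate 1 or 2 it was 0.115 or 0.0851. A fit of ras2a22 and the wild type alone gave 0.102. The count of 1 over the 5 mutants became 5 without wild-type replicate 1 or ira1 replicate 1, 4 without ira2 replicate 2, 3 without ira1 replicate 2, ira2 replicate 1 or ras2v19 replicate 1, and 2 without ras2v19 replicate 2. A floor at the 25th percentile of intensity in place of the 10th gave 7 calls.

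In ras2a22, 4.24% of all genes were called lower and 3.76% higher. Around ADE6, 3 of 7 other Bas1 targets fell, all of histidine synthesis: HIS1 (-2.29, adjusted p = 0.000171), HIS4 (-1.80) and HIS7 (-0.99). The IMP dehydrogenase gene IMD4 changed by -0.88, and ADE16 rose by 1.15 ± 0.27 (adjusted p = 0.021). With the ras2a22 arrays averaged as 1 sample, HIS1 was called (adjusted p = 0.00454), and HIS4 (0.229), HIS7 (0.182), IMD4 (0.238) and ADE16 (0.156) were not. The other lists had 0 calls in ras2a22, and BAS1 and PHO2 were too near the floor of the table for a change to be given.

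In ras2v19 against the wild type, limma called 0 of the 10 genes (0.144% of all genes). At an unadjusted p under 0.05, where the share of all genes is not given, there were 4. Of the 10 changes, 9 were above 0, as were 50.2% of all genes. The median was 0.63 against 0.01 over all genes, or 0.97 against 0.14 without ras2v19 replicate 2. ADE13 had 412 and 638 in ras2v19, against 208, 180, 182 and 161 in the wild type, a difference of 1.51 ± 0.27 (adjusted p = 0.0723). SHM2 had 1185 and 1286 in ras2v19, against 563, 531, 306 and 295 in the wild type, a difference of 1.62 ± 0.32 (adjusted p = 0.0836). Neither gene overlapped between the groups, and 5 of the 10 genes had both ras2v19 arrays above all wild-type arrays, as had 11.4% of all genes.

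Set directly against each other, the dominant-active and the dominant-negative allele called 4 of the 10 genes, all higher in ras2v19, where 6.62% of all genes passed and 3.44% were higher. The median change was 0.91, against 0.00 over all genes, or 1.39 against 0.08 without ras2v19 replicate 2. ADE6 had 237 and 222 in ras2v19, against 67 and 73 in ras2a22, a change of 1.71 ± 0.28 (adjusted p = 0.00487). ADE13 had 412 and 638 in ras2v19, against 145 and 145 in ras2a22, a change of 1.82 ± 0.32 (adjusted p = 0.00587). The groups stood well apart for both genes.

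ADE1 had 169 and 129 in ras2v19, against 41 and 53 in ras2a22, a change of 1.66 ± 0.37 (adjusted p = 0.0212). SHM2 had 1185 and 1286 in ras2v19, against 391 and 391 in ras2a22, a change of 1.66 ± 0.37 (adjusted p = 0.0204). With the ras2a22 arrays averaged as 1 sample, ADE6 (adjusted p = 0.0425) and ADE13 (0.0488) passed, ADE1 (0.113) and SHM2 (0.119) did not, and 2.28% of all genes were called. In a fit of ras2v19 and ras2a22 alone, SHM2 passed, and ADE6 (0.054), ADE13 (0.0895) and ADE1 (0.108) did not. Leaving out any 1 of the 4 arrays also put ADE1 (0.0527 to 0.153) and SHM2 (0.0547 to 0.109) above the threshold, and ADE13 was lost without ras2v19 replicate 2 (0.0518). In all, 8 of the 10 genes had both ras2v19 arrays above both ras2a22 arrays, as had 27.8% of all genes.

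Genes called in the neighbouring lists were higher in ras2v19 than in ras2a22, where 3.44% of all genes were called higher and 3.18% lower. HIS1 (2.46), HIS4 (2.45) and HIS7 (1.33) rose among 7 Bas1 targets, IMD4 (2.03) among 5 GMP-branch genes, HPT1 (1.38) and the purine permease gene FCY2 (1.15) among 9 salvage genes, and PRS5 (1.39) and PRS1 (0.96) among 5 PRPP genes. ADE3 rose by 1.64 (adjusted p = 0.038). With the ras2a22 arrays averaged as 1 sample, only HIS1 (adjusted p = 0.00561) and IMD4 (0.0177) of these 9 were called. HIS4, HIS7, HPT1, FCY2, PRS5, PRS1 and ADE3 had adjusted p of 0.0762 to 0.185. ADE16 was not called, at -0.87 (adjusted p = 0.12), and 0 of 9 folate and 0 of 4 serine genes were called.

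**Figure D4:**
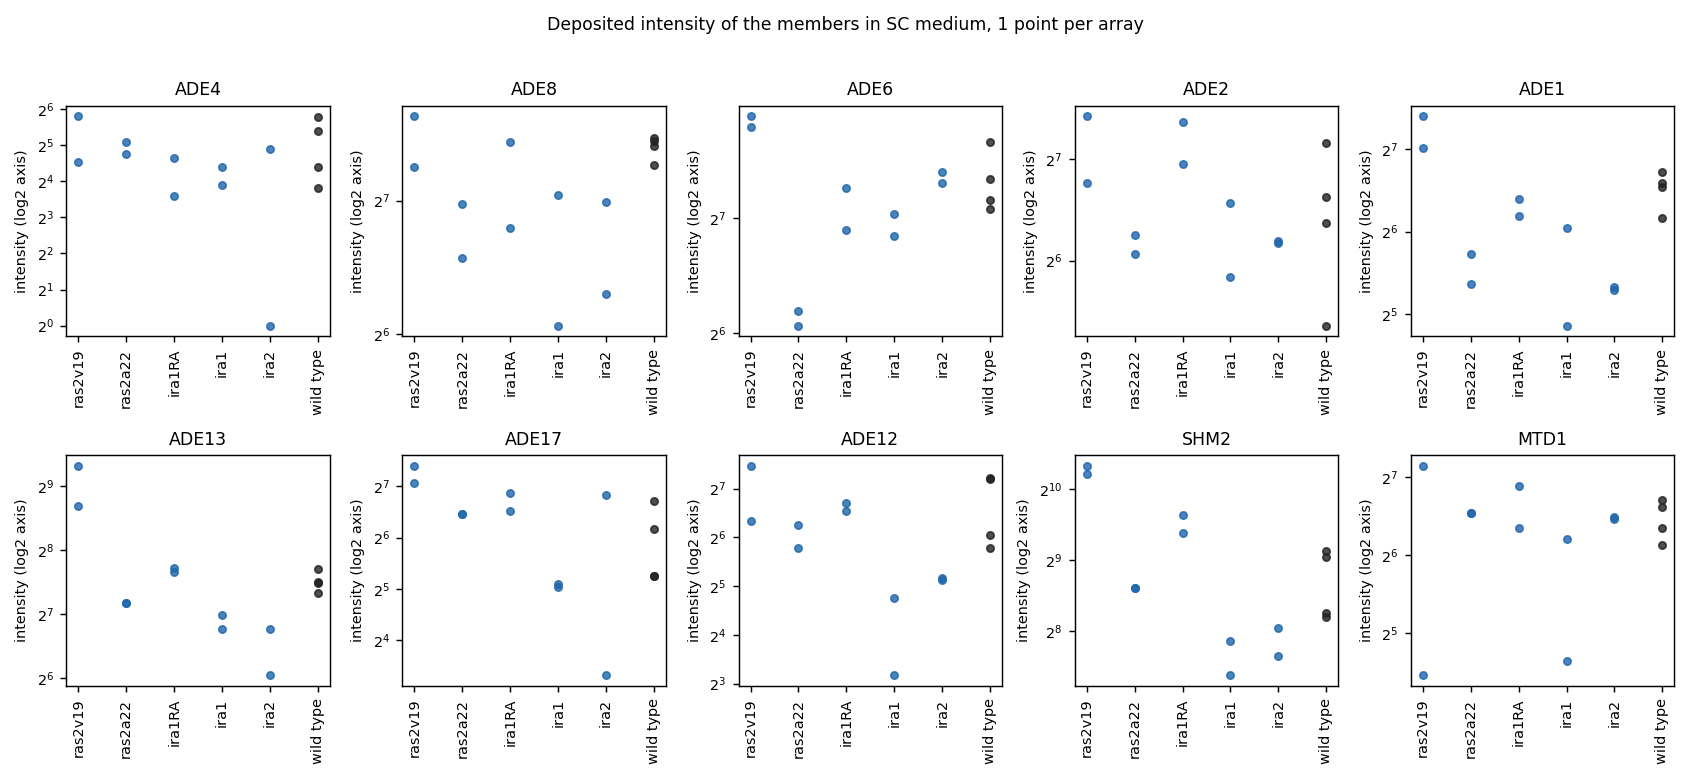
Points are deposited intensities on a log2 axis for each array of ras2v19, ras2a22, ira1RA, ira1, ira2 and the wild type, from left to right, with 1 panel per gene. SHM2 lies at 1185 and 1286 in ras2v19, above all other arrays drawn. In ras2v19 against ras2a22, 9 of the 10 genes have a positive change, as have 51.3% of all genes.

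The deletions of the Ras inhibitors gave no calls among the 10 genes. In ira1 against the wild type, limma called 0 of the 10 genes (0.234% of all genes). At an unadjusted p under 0.05, where the share of all genes is not given, there were 5. All 10 changes were below 0, as were 54.6% of all genes, with a median of -0.80 against -0.10 over all genes, or -0.50 against -0.05 without ira1 replicate 2. ADE12 had 27 and 9 in ira1, against 66, 55, 147 and 150 in the wild type, a difference of -2.59 ± 0.52 (adjusted p = 0.0633). Its ira1 values lie below the array medians of 28 to 30, so the size of this difference is uncertain. ADE1 had 66 and 29 in ira1, against 72, 93, 106 and 96 in the wild type, a difference of -1.04 ± 0.32 (adjusted p = 0.227). Both ira1 arrays lay below all wild-type arrays for 6 of the 10 genes, as they did for 9.98% of all genes.

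In ira2 against the wild type, limma again called 0 of the 10 genes (2.09% of all genes). At an unadjusted p under 0.05, where the share of all genes is not given, there were 6. ADE13 had 109 and 66 in ira2, against 208, 180, 182 and 161 in the wild type, a difference of -1.14 ± 0.27 (adjusted p = 0.0592). ADE1 had 39 and 40 in ira2, against 72, 93, 106 and 96 in the wild type, a difference of -1.24 ± 0.32 (adjusted p = 0.0782). Of the 10 changes, 9 were below 0 (58.4% of all genes), and the sign of MTD1 turned after quantile normalization. The median was -0.83, against -0.18 over all genes, and 5 genes did not overlap, as did 12.4% of all genes. Quantile normalization moved the median of all genes by 0.144 in ira1 and 0.199 in ira2, and by 0.129 in ras2v19 against ras2a22. Among the neighbouring lists in ira2, GCV1 (-2.66, adjusted p = 0.00948) and GCV3 (-1.57) fell, where 1.92% of all genes were called lower. A fit of ira2 and the wild type alone lost both (adjusted p of 0.181 and 0.115), and GCV3 was lost after quantile normalization too (0.0514). PNP1 was called lower with an array at the table's lowest value, so no fold is given. The wild type differs from the ira strains in the leu2 and his3 disruptions as well, and their part cannot be told apart from that of the ira deletions.

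The ira1RA allele was set against the ira1 deletion it was put into. Limma called 0 of the 10 genes (0.126% of all genes). At an unadjusted p under 0.05, where the share of all genes is not given, there were 4. SHM2 had 798 and 667 in ira1RA, against 233 and 167 in ira1, a difference of 1.89 ± 0.37 (adjusted p = 0.125). ADE12 had 104 and 93 in ira1RA, against weak values of 27 and 9 in ira1, a difference of 2.66 ± 0.60 (adjusted p = 0.165). Both genes had ira1RA arrays above both ira1 arrays, as had 7 of the 10 genes and 19.0% of all genes. Against the wild type, ira1RA called 0 of the 10 genes (0.0719% of all genes), with 1 at an unadjusted p under 0.05. There 6 of the 10 changes were above 0, as were 47.2% of all genes.

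With cAMP at 2 mM against 0 mM, 1 of the 10 genes was called, where 19.6% of all genes passed. ADE6 had 164 and 150 at 2 mM, against 60 and 57 at 0 mM, a change of 1.42 ± 0.28 (adjusted p = 0.0035). Higher at 2 mM without overlap were 4 of the 10 genes, ADE6 among them, and 41.0% of all genes. Lower without overlap were 2 of the 10 genes and 32.4% of all genes. As a slope over all 4 concentrations, ADE6 changed by 0.59 log2 units per mM (adjusted p = 0.126). The median change of the 10 was 0.03, against 0.13 over all genes, or -0.04 against 0.15 after quantile normalization. The difference of strain number and plasmid between these arrays cannot be told apart from that of cAMP.

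At the middle concentrations the levels were higher than at either end for nearly all of the 10 genes. SHM2 had 190 and 214 at 0 mM, 1534 at 0.5 mM, 1072 at 1 mM and 195 and 204 at 2 mM. ADE13 had 93 and 129 at 0 mM, 630 at 0.5 mM, 398 at 1 mM and 159 and 137 at 2 mM. ADE8 had 96 and 100 at 0 mM, 330 at 0.5 mM, 224 at 1 mM and 109 and 96 at 2 mM. In these genes the ends lie close together and both middle arrays stand apart. The 0.5 and 1 mM arrays were both above all 0 and 2 mM arrays for 9 of the 10 genes, all but ADE4, as they were for 11.6% of all genes. Each middle concentration had a single array, so these values have no replicate check and were not tested.

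**Figure D5:**
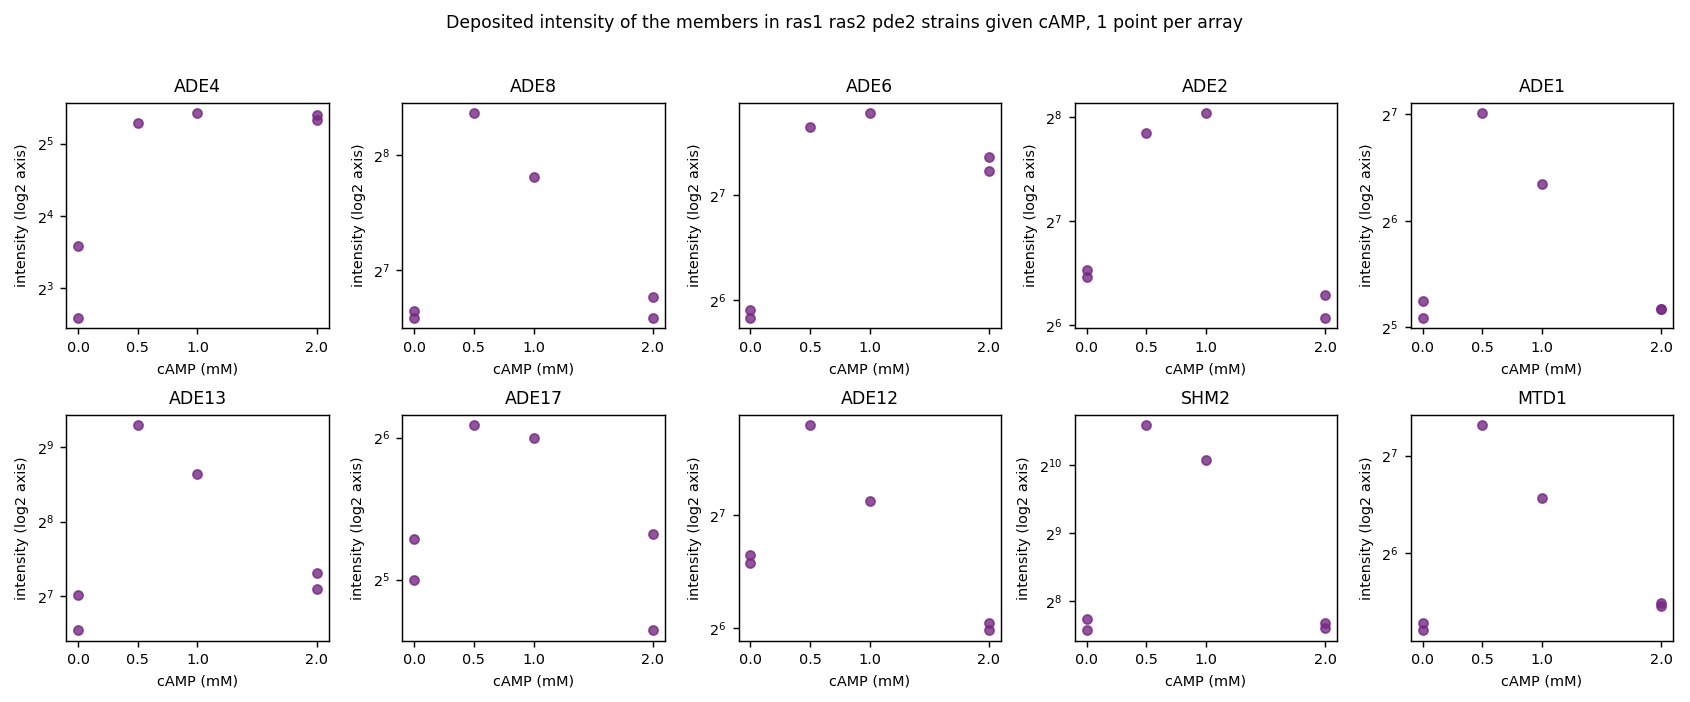
Points are deposited intensities (vertical axis) against the cAMP concentration in mM (horizontal axis) for each of the 10 genes. SHM2 stands at 1534 at 0.5 mM and 1072 at 1 mM, and at 190 to 214 at 0 and 2 mM.

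In the neighbouring lists more genes were called between the ends of the series, where 12.1% of all genes were called higher and 7.54% lower. At 2 mM against 0 mM, 4 of 5 GMP-branch genes rose, among them IMD4 (3.81, adjusted p = 3.9e-06), GUA1 (3.75) and IMD3 (2.05), as did 4 of 5 PRPP genes, among them PRS3 (2.42), PRS1 (2.03) and PRS5 (1.60). Of 9 salvage genes, 5 rose, among them FCY2 (1.60) and HPT1 (1.34). AAH1 was also called, but its 0 mM mean of 0.50 on the log2 scale lay near the floor of 0, so no fold is given. Of 7 Bas1 targets, HIS1 (2.65), HIS4 (2.30) and HIS7 (2.02) rose, and GCV1 (-3.41) and GCV3 (-2.62) fell. The folate gene MIS1 rose by 2.51, 0 of 4 serine genes were called, and ADE16 changed by -1.17 (adjusted p = 0.0179), opposite in sign to ADE6. Leaving out 1 array at 0 or 2 mM lost ADE16 in each case (adjusted p of 0.0576 to 0.128), HIS4 in 3 cases (0.0505 to 0.0723) and IMD3 in 2 (0.0885 and 0.0728).

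Within groups the SC arrays varied widely for the weakest signal. ADE4 had 1 and 30 in ira2 and 14, 21, 42 and 55 in the wild type, and it was called in none of the SC comparisons. Its group means spread by 0.797 of its within-group SD, the lowest ratio of the 10 genes, against 3.996 for ADE13, 3.696 for SHM2, 3.401 for ADE6 and a median of 1.033 over all genes. Of 9 steps between neighbouring group means, 6 exceeded the within-group SD for ADE13, and 0 did for ADE4, ADE17 and MTD1. The wild-type arrays themselves differed: SHM2 had 563 and 531 on replicates 1 and 2 and 306 and 295 on replicates 3 and 4, and ADE12 had 66, 55, 147 and 150.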

How the data were processed

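Affymetrix arrays of 70 colony samples (21 groups) and 20 samples from SC medium (10 groups) were used, and groups follow the labels. The colony values were deposited on the log2 scale, and the submitters' processing notes name RMA. They were used as deposited. The SC values were deposited as whole-number intensity from 1 to 16048. The sources used here do not give how the authors made them. These arrays (medians 28 to 30, with 6.77 to 25.6% of values at 1) were scaled to the same median, set to a floor at the 10th percentile of all values (1), and log2 was taken. Probe sets with 1 annotated gene (5668 of 6739 and 5595 of 6178) gave 5562 and 5560 genes, named through the RefSeq table of assembly R64. The probe set with the highest mean was used where a gene had several. The purine gene ADE5,7 was not analysed here, and probe sets of similar copies such as ADE16 and ADE17 may share signal.

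All groups of a table were fitted together with limma 3.58.1 (R 4.3.3) (residual degrees of freedom 49 and 10) and eBayes without trend, with two-sided tests and Benjamini-Hochberg adjustment over all genes. The calls were tested on simulated data. Descriptions and plots used Python 3.11.15, numpy 2.4.6, pandas 2.3.3 and matplotlib 3.10.9. The departure of a double deletion is its change minus the sum of the single changes.

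The members, the gene lists and the rule for named genes were chosen with earlier results of these data known. Named are all 10 members, the regulators BAS1 and PHO2, the other purine synthesis genes, and up to 3 called genes of each other list with the largest changes. Also named are the 10 genes most like the members' mean over the colony groups, the deleted genes and FLO11.

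The alternatives tried were leaving out each array, fitting the compared groups alone, a block for the replicate number, quantile normalization, trended and robust eBayes, averaging probe sets, and dropping genes under the 25th percentile of mean level. For SC, a higher floor (25th percentile) and a slope over cAMP were added. Averaging the ras2a22 arrays was added after seeing the data. Same-numbered arrays of the forms of the wild type had residual correlations of 0.113 to 0.254, and no other comparison had all pairs above 0.1. Precision is limited by the number of arrays. The p-values measure only the spread between these samples, which may be technical.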

Additional observations from a re-analysis of the deposited data

Results flagged for a closer look

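In tec1, replicate 2 read ADE8 at 11.17, apart from the other 4 arrays, which read 10.72 to 10.80. The same array read ADE1 at 11.47, against 10.92 to 11.07 on the others. These were 2 of 40 groups of 4 to 10 arrays looked at, and chance alone sets about 1 in 20 groups apart. The departure of sfl1-yap6 from the sum of its single changes was -0.97 for ADE4 (limma, adjusted p = 0.0211) and -0.70 for ADE6 (adjusted p = 0.0233). In the main fit, the change with 1 deletion thus differed by whether the other was present. Both calls were lost without sfl1-yap6 replicate 3 (limma, adjusted p of 0.163 for ADE4 and 0.0634 for ADE6) and under other alternatives.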

How the results depend on the processing

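Of 33 calls among the 10 genes, 4 passed under each alternative run: ADE17 and SHM2 between the forms, ADE12 in sfl1 and ADE4 in sfl1-yap6. In 0 of the 33 did an alternative turn the sign. The calls between the forms numbered 5 in place of 3, those in sfl1 2 in place of 1, and those for cAMP 3 in place of 1, when only the groups compared were fitted. That fit gave 0 over the 5 SC mutants in place of 1, and 1 for ras2v19 against ras2a22 in place of 4. It gave 18 over the double deletions in place of 17 and 2 departures, with 2 in sfl1-yap6 in place of 5. Quantile normalization gave 1 in skn7 in place of 3, 0 in yap6 in place of 1, and 2 for cAMP. The slope over cAMP gave 0. For the 5 SC mutants, a filter on mean level gave 6, eBayes with trend and robust 5, and the higher floor 7, and the trend and floor settings each gave 1 for ira1RA against ira1 in place of 0. With the ras2a22 arrays averaged the 5 SC mutants gave 0 and ras2v19 against ras2a22 gave 2. With the replicate number as a block, yap6 gave 0, the 5 SC mutants 2 and ira1RA against ira1 1. The block gave 3 between the forms, 3 in skn7, 16 over the double deletions and 2 departures, and moved no other count by over 1.5 times. Over comparisons, same-numbered arrays correlated from -0.377 to 0.443, so most share only a number. Leaving out each array in turn gave 2 to 3 calls between the forms, 0 in tec1, cup9 and sok2, 1 in sfl1, 0 to 3 in skn7, 0 in yap6, 10 to 18 over the double deletions, 0 to 4 departures, 0 to 5 over the SC mutants, 1 for cAMP, 0 to 1 for ira1RA against ira1 and 1 to 3 for ras2v19 against ras2a22. A lone array in a group was taken to vary as the arrays of other groups do. When tec1 replicate 1 and cup9 replicate 4 were both left out, the double deletions gave 16 calls and the departures 2. The cause of these differences was not tested. Values near the floor of the SC table limit what can be read of ADE4. Weak or uneven intensities also limit ADE12 in ira1 (27 and 9), ADE17 in ira2 (10 and 113) and MTD1 in ras2v19 (141 and 22).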
